A study of Danio rerio
Oryzias latipes and Oryzias latipes and Danio rerio with 7 samples.

Results

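The genes described here are 45 genes of DNA replication, followed in zebrafish embryos, medaka embryos and zebraka, which are medaka embryos carrying zebrafish cells. They were found by symbol in the deposited tables, without regard to case, and every gene record of a symbol was kept. On the zebrafish genome 46 records carried the 45 symbols, out of 32264 gene IDs, because rrm2 has 2 records. On the medaka genome 45 records carried 43 of the symbols, out of 20459 gene IDs, with no record named orc6 or rrm2 and 2 records each for rpa1 and rrm1.

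RNA came from whole embryos of medaka (Cab strain, 2 libraries), zebrafish (AB strain, 2 libraries) and zebraka (Cab/AB, 3 libraries). Zebraka were made by placing zebrafish blastomeres into medaka blastulae of the same age, and are called chimeras below. All embryos were kept at 28 °C, zebrafish in E3 medium and both others in ERM, so for the zebrafish cells the medium differed together with the transplantation. The stage is given only as embryo, and nothing in the labels ties a library to its own clutch or pool. The spread behind each p-value is that between these libraries, and it may be purely technical. Each library was aligned to both genomes. The zebrafish-genome values of a chimera are read as its donor cells and the medaka-genome values as its host, apart from reads that map across genomes. The donor comparison sets those donor transcripts beside whole zebrafish embryos, and the labels do not say which tissues the donor cells formed.

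A cell copies its genome in steps. In G1 phase the origin recognition complex (ORC), with Cdc6 and Cdt1, loads the MCM2-7 ring, the core of the replicative helicase, onto origins. In S phase Cdc45 and GINS join the ring and activate it, primase and polymerase alpha lay down primers, and polymerases epsilon and delta extend the strands, held on DNA by the PCNA clamp. RPA covers single-stranded DNA, Fen1 and Lig1 finish the lagging strand, and ribonucleotide reductase and thymidylate synthase supply the deoxynucleotides. In vertebrates many of these genes are transcribed at the G1/S transition under E2F factors, and their summed level is often read as a sign of proliferating cells, such as progenitors of the developing brain and retina.

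Depth differed sharply between the sides of a chimera. The confidence limits in the tables imply 764000 to 941708 fragments per chimera on the zebrafish genome, against 21866655 and 28574227 in the zebrafish embryos. On the medaka genome they imply 27167734 to 30983952 per chimera and 18330408 and 21491640 in the medaka embryos. The medaka embryo libraries, which hold no zebrafish cells, imply 102064 and 77794 fragments on the zebrafish genome. Part of the zebrafish-genome total of a chimera can thus be host reads. For the tested replication genes the median was 74.8 to 103.5 fragments in the chimeras' donor transcripts, and the lowest was rfc1 with 7.98 to 13.4. In the other species' libraries every tested replication gene held at most 1 fragment, on either genome. No pair of libraries agreed within counting error. Among the chimeras, 1 and 3 were the most alike, with a variance 1.24 times the counting error on the zebrafish genome and 2.79 times on the medaka genome, and chimera 2 stood apart from both (2.48 to 2.73 times and 7.55 to 11.1 times). The pair of zebrafish embryo libraries stood at 24.2 times and the medaka pair at 2.74 times. For the same spread this ratio grows with depth, so it does not rank pairs of unlike depth by how well they repeat.

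Donor transcripts of the chimeras held more RNA of nearly the whole replication machinery than whole zebrafish embryos did. Of 43 tested records 33 rose (76.7%), 0 fell and 10 were not called. Over all 16556 tested zebrafish genes 10.5% rose and 32.5% fell. All 43 differences were above 0, with a median of 0.61 on the log2(FPKM + 1) scale and a range of 0.10 to 1.34, where the median of all tested genes was -0.23. Calls are those of limma at a Benjamini-Hochberg adjusted p under 0.05 over all tested genes. Every chimera was above both zebrafish embryos for 38 of the 43 records, which held for 22.1% of all tested genes. In these whole-embryo libraries a larger share of dividing cells, more RNA per cell and a different makeup of tissues cannot be told apart.

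**Figure D1:**
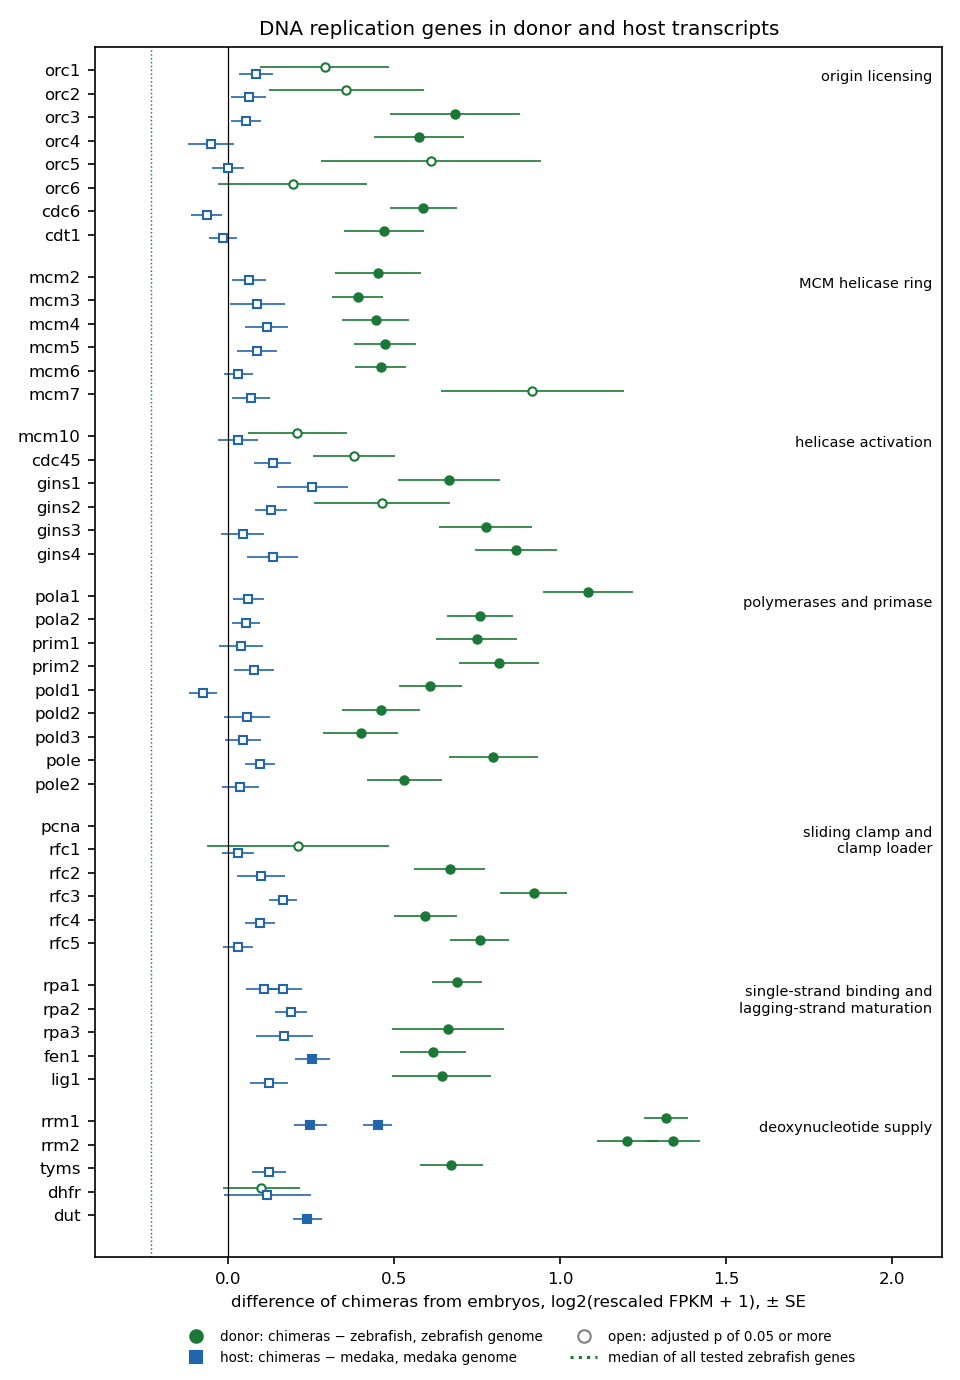
Difference of chimeras from embryos of the same species for each replication gene, on the log2(rescaled FPKM + 1) scale with its standard error, grouped by role. Green circles are donor transcripts (3 chimeras against 2 zebrafish embryos), blue squares are host transcripts (3 chimeras against 2 medaka embryos), filled symbols passed the test and genes without a symbol were not tested. Donor differences run from 0.10 to 1.34, all right of the dotted line at -0.23 that marks the median zebrafish gene, and host differences run from -0.07 to 0.45.

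The donor count fell most when a zebrafish library was left out, which leaves 1 control. Fewer of all tested genes were called in those fits too. The member median was 0.67 without zebrafish replicate 1 and 0.53 without zebrafish replicate 2. The count was 27, 32 and 29 without chimera 1, 2 and 3, where 1601, 1892 and 1554 of all tested genes rose. Without either zebrafish library orc3, orc4, cdt1, mcm2, mcm4, mcm5, gins1, gins3, prim1, prim2, pold1, pold2, pold3, pole2, rpa3, fen1 and lig1 lost their calls, and without replicate 2 also rfc2 and rfc4. The 14 records whose call held in each of these fits that tested them belonged to rrm1, rrm2 (both), tyms, pola1, pola2, pole, rfc3, rfc5, rpa1, gins4, mcm3, mcm6 and cdc6. With all 3 groups in the fit, cdc6 (adjusted p = 0.32) and mcm3 (adjusted p = 0.4) lost their calls. In the same fit mcm7 (adjusted p = 0.029) and cdc45 (adjusted p = 0.021) gained calls, and the differences of all of them were unchanged. On their zebrafish records cdc6 and mcm3 were at 2.00 and 1.40 FPKM in medaka replicate 2, from at most 1 fragment, and at 0 in medaka replicate 1. Under quantile normalization the all-gene median shifted from -0.23 to 0.30 and the share of higher genes among those called went from 24.5% to 61.9%. Relative to the median of all genes the members stood at 0.84 with the main scaling and at 0.46 with quantile normalization, with 38 risen and 0 fallen in the latter.

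**Figure D2:**
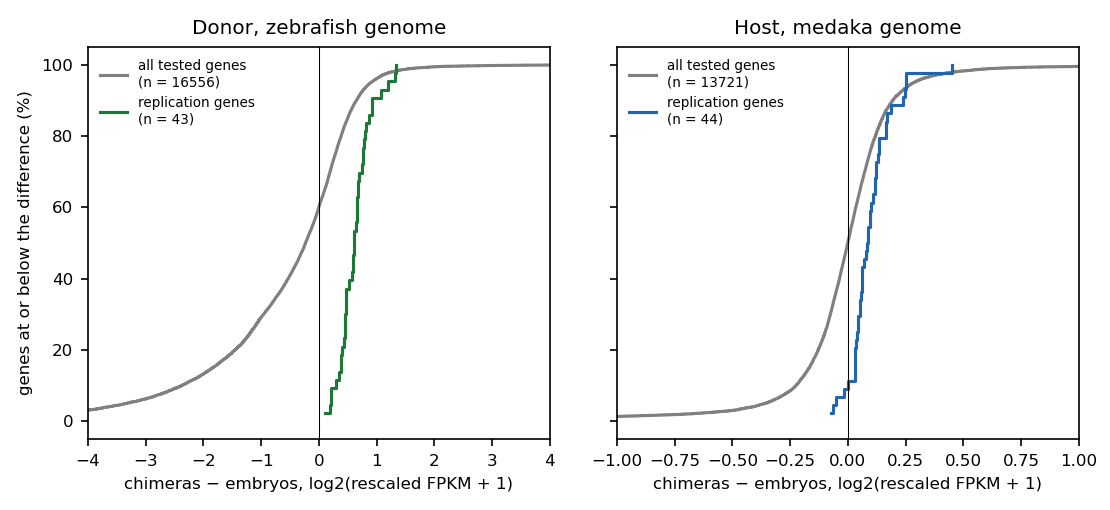
Cumulative share of genes (percent) by their difference between chimeras and embryos, on the log2(rescaled FPKM + 1) scale, for all tested genes (grey) and the tested replication genes (coloured). In the donor panel the 43 replication records lie wholly above 0 while the median of all genes is -0.23. In the host panel, on a narrower axis, the 44 records have a median of 0.085 beside a median of all genes near 0.

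Deoxynucleotide supply held the largest differences, with 4 of 5 tested records risen, where 10.5% of all tested zebrafish genes rose. Levels are given as rescaled FPKM, which are per length of transcript. rrm1, the large subunit of ribonucleotide reductase (ENSDARG00000014017, chromosome 21, 30735348 to 30750719 in danRer10), stood at 134 and 135 in the zebrafish embryos and at 329, 347 and 337 in the chimeras. The groups were far apart, a 2.51-fold rise (log2 difference 1.32, SE 0.07, adjusted p = 0.00011). rrm2, the small subunit, has a record on chromosome 20 (ENSDARG00000020711, 29589590 to 29596547) and another on chromosome 19 (ENSDARG00000078069, 48003903 to 48010821). The former stood at 193 and 184 in the zebrafish embryos and at 499, 448 and 489 in the chimeras (2.54-fold, SE of the log2 difference 0.08, adjusted p = 0.00019). The latter stood at 200.4 and 171 against 420.2, 427 and 433 (2.30-fold, SE 0.09, adjusted p = 0.00047). Both subunits therefore rose by factors of 2.30 to 2.54, but reads could be split between the rrm2 records if their sequences are close. tyms, thymidylate synthase, rose 1.61-fold (adjusted p = 0.0043). dhfr, dihydrofolate reductase, which regenerates the folate that tyms uses, was not called. It stood at 19.2 and 17.3 against 21.3, 18.4 and 19.2, so the groups overlapped.

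All 9 tested polymerase and primase records rose (all tested genes: 10.5%), with a median difference of 0.75. pola1, the catalytic subunit of polymerase alpha (ENSDARG00000045308, chromosome 24, 23695675 to 23787351), stood at 16.4 and 19.0 in the zebrafish embryos and at 34.0, 41.7 and 40.1 in the chimeras (2.19-fold, log2 difference 1.08, SE 0.13, adjusted p = 0.0028). prim2, the large primase subunit, stood at 26.9 and 26.4 against 51.6, 49.9 and 42.0 (1.80-fold, SE 0.12, adjusted p = 0.0051). pole, the catalytic subunit of the leading-strand polymerase epsilon, stood at 8.08 and 10.2 against 17.0, 16.2 and 16.4 (1.81-fold, SE 0.13, adjusted p = 0.0082). No chimera overlapped an embryo in any of the 9, where 22.1% of all tested genes had every chimera above both embryos. The 4 subunits of the alpha-primase complex, which makes the primers, differed by 0.75 to 1.08. pold1, pold2 and pold3 of the lagging-strand polymerase delta differed by 0.61, 0.46 and 0.40, and pole2, the second epsilon subunit, by 0.53.

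Of the clamp and its loader, replication factor C, 4 of 5 tested records rose (all tested genes: 10.5%). rfc3 (ENSDARG00000055969, chromosome 10, 34080393 to 34089605) stood at 34.5 and 29.6 in the zebrafish embryos and at 60.7, 59.8 and 63.7 in the chimeras (1.92-fold, SE of the log2 difference 0.10, adjusted p = 0.0018). rfc5 stood at 48.7 and 50.2 against 86.6, 88.1 and 78.4 (1.71-fold, SE 0.09, adjusted p = 0.0021). rfc2 stood at 32.6 and 29.7 against 48.4, 54.7 and 47.3 (1.61-fold, SE 0.11, adjusted p = 0.0069). These small loader subunits rose in each chimera, as did rfc4 (1.51-fold, adjusted p = 0.0067). rfc1, the large subunit, was not called (0.21, SE 0.28, adjusted p = 0.58). Its value rested on the fewest fragments of all members, and without zebrafish replicate 1 its difference was -0.03.

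pcna, the clamp itself, was the most abundant member in every group. It stood at 613 and 559.9 in the zebrafish embryos and at 967, 970.1 and 984 in the chimeras, 1.66-fold higher. It was kept out of the test because medaka replicate 2 was at 3.87 FPKM on its zebrafish record, less than 1 fragment, while medaka replicate 1 was at 0. The cross-mapped signal this implies for a chimera is 0.27 to 0.29 FPKM. With that signal taken off, pcna differed by 0.73 (adjusted p = 0.0012), and without medaka replicate 2 it was tested and differed by 0.73 (adjusted p = 0.0011). rpa2 was kept out because both medaka libraries had signal on its record (6.14 and 7.46 FPKM), with 77.9 and 72.5 against 128, 156 and 124, an implied cross-mapped signal of 1.00 to 1.08 FPKM, and a difference of 0.83 with that signal taken off (adjusted p = 0.0059).

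All 4 tested records of single-strand binding and lagging-strand maturation rose (all tested genes: 10.5%). rpa1, the large subunit of RPA, stood at 76.9 and 76.0 in the zebrafish embryos and at 123, 119 and 129.5 in the chimeras (1.62-fold, SE 0.08, adjusted p = 0.0016). rpa3, its smallest subunit, stood at 75.1 and 58.4 against 108, 119 and 91.1 (1.59-fold, SE 0.17, adjusted p = 0.032). lig1, the ligase that seals Okazaki fragments, stood at 74.0 and 63.7 against 92.4, 122 and 111 (1.58-fold, SE 0.15, adjusted p = 0.024). The groups did not overlap in any of them, where 22.1% of all tested genes had every chimera above both embryos. fen1, the flap nuclease, rose 1.54-fold (adjusted p = 0.0072).

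In the MCM2-7 ring 5 of 6 subunits rose (all tested genes: 10.5%), by a narrow range of 0.39 to 0.47. mcm5 stood at 104 and 96.6 in the zebrafish embryos and at 131, 151 and 136 in the chimeras (1.39-fold, SE 0.09, adjusted p = 0.014). mcm6 stood at 77.4 and 73.9 against 105, 108 and 100.2 (1.38-fold, SE 0.08, adjusted p = 0.0078). mcm7 had the largest difference of the ring and was the subunit that missed the threshold (ENSDARG00000101180, chromosome 14, 150838 to 158517). It stood at 278 and 283 against 424, 762 and 462, a difference of 0.92 (SE 0.28, adjusted p = 0.052). Every chimera was above both embryos, and chimera 2 was far above the other chimeras. The difference passed the test without chimera 2, at 0.67 (adjusted p = 0.0079), and also without chimera 1 (adjusted p = 0.046). The mcm7 record also spans annotated records of the microRNAs mir-19d, mir-93 and mir-25, which were at 0 in these libraries.

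mcm7 was also the most abundant subunit of the ring in all 10 profiles of both genomes. On the zebrafish genome it was 3.46 and 3.70 times the median of the other 5 subunits in the embryos and 4.04, 6.48 and 4.61 times in the chimeras. On the medaka genome it was 1.87 and 1.81 times in the embryos and 1.84, 1.96 and 1.87 times in the chimeras. The other 5 subunits stayed within 1.52 to 1.69 times of each other on the zebrafish genome and within 1.71 to 1.78 times on the medaka genome. An assembled ring holds each subunit once.

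**Figure D3:**
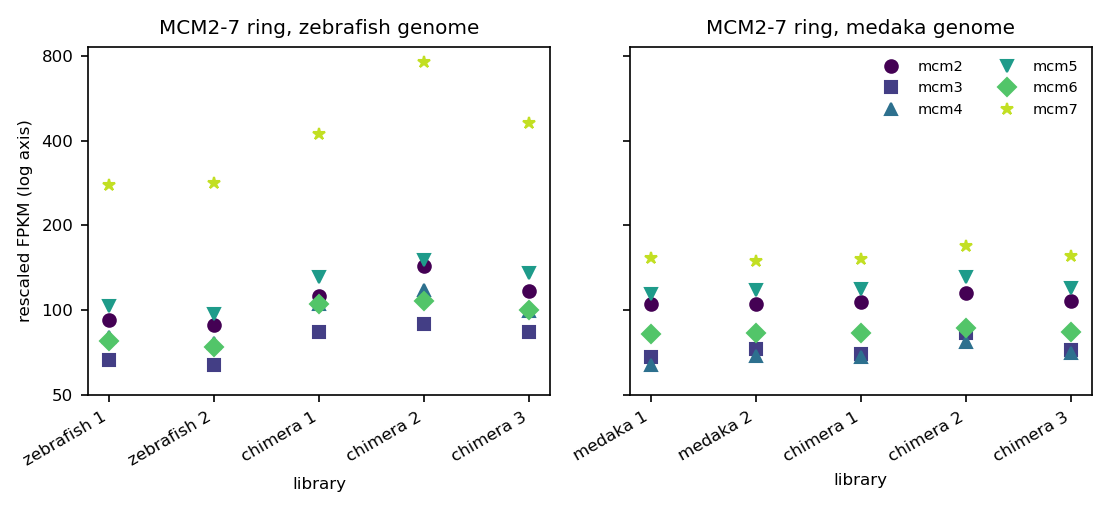
Rescaled FPKM (log axis) of the 6 subunits of the MCM2-7 ring in each embryo and chimera library, on the zebrafish genome (left) and on the medaka genome (right). mcm7 (stars) lies above the other subunits in every library, at 278 to 762 on the zebrafish genome, with the highest value in chimera 2.

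Of the 6 factors that activate the helicase 3 rose (all tested genes: 10.5%), all of them GINS subunits. gins4 stood at 24.1 and 20.7 in the zebrafish embryos and at 41.3, 45.2 and 38.3 in the chimeras (1.86-fold, SE 0.12, adjusted p = 0.0044). gins3 stood at 17.7 and 16.1 against 26.2, 33.7 and 29.4 (1.76-fold, SE 0.14, adjusted p = 0.011). gins1 stood at 13.1 and 12.1 against 17.5, 21.3 and 23.4 (1.64-fold, SE 0.15, adjusted p = 0.024). The chimeras were above the embryos in all 6, which held for 22.1% of all tested genes. That includes gins2 (0.46, adjusted p = 0.14), cdc45 (0.38, adjusted p = 0.063) and mcm10 (0.21, adjusted p = 0.32), which were not called. mcm10, which helps the assembled helicase start to unwind DNA, was the least abundant detected member, at 6.27 ± 0.37 (SD, n = 2) in the embryos and 7.42 ± 0.90 (SD, n = 3) in the chimeras.

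Origin licensing genes were split, with 4 of 8 risen (all tested genes: 10.5%). orc3, a subunit of ORC, stood at 11.1 and 11.9 in the zebrafish embryos and at 20.6, 15.0 and 22.3 in the chimeras (1.68-fold, SE 0.20, adjusted p = 0.045). cdc6, the loader that joins ORC, stood at 25.9 and 22.3 against 37.7, 36.3 and 36.1 (1.52-fold, SE 0.10, adjusted p = 0.0089). orc5 stood at 8.68 and 8.34 against 9.83, 21.0 and 11.9, where chimera 2 set the size of the difference (0.61, SE 0.33, adjusted p = 0.21). orc4 rose 1.51-fold (adjusted p = 0.025) and cdt1 rose 1.41-fold (adjusted p = 0.032). orc1, orc2 and orc6 overlapped between the groups and were not called (0.29, 0.36 and 0.19, adjusted p = 0.29, 0.28 and 0.53). Among the detected members outside the test or below its threshold, none was lower in the mean of the chimeras. dut, which hydrolyses dUTP, could not be followed, because its zebrafish record is 101 bases wide and is listed at 0 in all libraries.

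**Figure D4:**
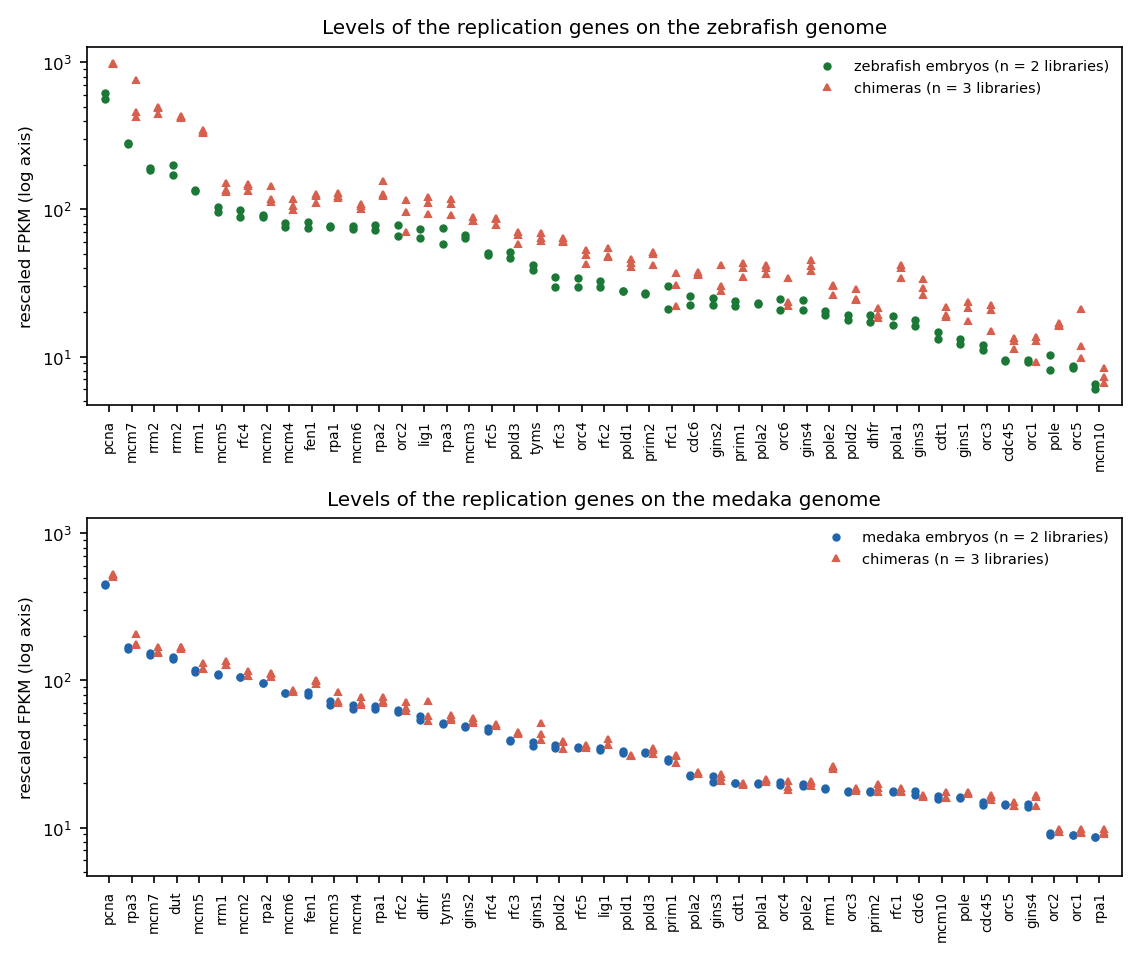
Rescaled FPKM (log axis) of every replication gene record above 0 in each library, in the order of its level in the embryos, on the zebrafish genome (top) and the medaka genome (bottom). Circles are embryos and triangles are chimeras. The chimeras lie above the zebrafish embryos for most records, from pcna at 559.9 to 984 down to mcm10 at 6.01 to 8.38. The groups overlap for orc1, orc2, orc6, rfc1 and dhfr. Medaka embryos and chimeras lie closer together, with every chimera above both embryos for 24 of 44 tested records (all tested genes: 22%).

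In the host the same genes moved little. Of 44 tested medaka records 4 rose (9.09%), 0 fell and 40 were not called, where 2.7% of all 13721 tested medaka genes rose and 3.18% fell. The median difference was 0.085, with a range of -0.07 to 0.45, beside a median of all genes near 0. Every chimera was above both medaka embryos for 24 records, which held for 22% of all tested genes, and below both for cdc6 and pold1, which held for 22.6%. Without either medaka library, which leaves 1 control, the member calls were lost and fewer of all tested genes were called too. The member median was then 0.070 without medaka replicate 1 and 0.091 without medaka replicate 2. The count of risen members was 1, 5 and 1 without chimera 1, 2 and 3, where 203, 486 and 67 of all tested genes rose. No record fell in any of these fits. With FPKM as deposited, 57.7% of called medaka genes were higher in place of 45.9%, and 3 members rose.

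Of the 4 host calls 3 were in deoxynucleotide supply, with both rrm1 records among these 3. The rrm1 record on medaka chromosome 14 (ENSORLG00000008260, 16408382 to 16413643, build not given in the sources used here) stood at 18.6 and 18.4 in the medaka embryos and at 25.9, 24.9 and 26.1 in the chimeras (1.39-fold, log2 difference 0.45, SE 0.04, adjusted p = 0.0065). The more abundant rrm1 record on chromosome 13 (ENSORLG00000006731) stood at 110.4 and 108 against 127, 136 and 127 (1.19-fold, SE 0.05, adjusted p = 0.045). dut stood at 139.9 and 143 against 169, 164 and 169 (1.18-fold, SE 0.04, adjusted p = 0.036). The 2 groups of each of these records did not overlap, where 22% of all tested medaka genes had every chimera above both embryos. fen1 stood at 83.8 and 79.9 against 101, 93.9 and 98.7 (1.19-fold, SE 0.05, adjusted p = 0.046). Only the chromosome 14 record of rrm1 kept its call without chimera 1 or chimera 3. pcna, kept out by the cross-mapping filter, stood at 448 and 449 against 525, 504 and 523 (1.15-fold, and adjusted p = 0.045 without the filter).

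For the other roles of the host, both members with the largest difference were within small factors of the embryos. orc1 stood at 8.86 and 8.84 in the medaka embryos and at 9.13, 9.79 and 9.40 in the chimeras, and cdc6 at 16.8 and 17.7 against 16.2, 16.7 and 16.4. mcm4 stood at 63.8 and 68.4 against 68.4, 76.7 and 70.1, and mcm3 at 68.0 and 72.7 against 69.7, 83.1 and 72.1. gins1 stood at 38.3 and 36.0 against 39.4, 51.1 and 43.5, and cdc45 at 14.2 and 15.0 against 16.2, 15.4 and 16.8. Chimera 2 was the highest library for mcm4, mcm3 and gins1. pole stood at 16.0 and 15.9 against 16.9, 17.5 and 17.1, and prim2 at 17.4 and 17.6 against 19.6, 17.4 and 18.6. rfc3 stood at 39.6 and 38.6 against 44.3, 44.1 and 43.5, and rfc2 at 60.7 and 62.8 against 61.7, 71.9 and 65.3. rpa2 stood at 96.4 and 95.7 against 111, 105 and 112 (adjusted p = 0.078). None of these 11 passed the test, and the smallest adjusted p among them was 0.076, for rfc3.

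The change in the donor exceeded the change in the host when both were put in a single fit. That fit took 38 symbols with 1 tested record in each genome, so it left out rrm1, rpa1, rrm2, pcna, rpa2, dut and orc6. The chimera libraries enter it on both genomes. It pools a single variance per gene over donor and host profiles of unlike depth, so its SE may be too small for the donor. The donor change was larger for 24 of the 38 (63.2%) and smaller for 0, where it was larger for 12.9% and smaller for 30.6% of all 7789 symbols tested (2662 larger and 1539 smaller under quantile normalization). The median of donor change minus host change was 0.50, and it was above 0 for 37, the exception being dhfr at -0.02. The count was 8 of 9 for polymerases and primase, 4 of 5 for the clamp loader, 4 of 7 for origin licensing, 3 of 6 for the MCM ring, 2 of 6 for helicase activation, 2 of 3 for RPA and lagging-strand genes and 1 of 2 for tyms and dhfr. The largest was pola1, at 1.02 (SE 0.15, adjusted p = 4e-04), which changed by 1.08 in the donor and 0.06 in the host. rrm1 could be compared only with its medaka records summed, and then gave 1.04 (adjusted p = 6.2e-06).

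Levels of the replication genes followed a similar order in both species. Across 42 symbols Spearman's rho between zebrafish and medaka embryos was 0.76, and between donor and host transcripts of the chimeras it was also 0.76. These are correlations across genes, which are not independent replicates, and the chimera values share libraries. In the embryos of both species pcna came first and mcm7 was among the first 3. In zebrafish embryos pcna stood at 587 ± 37.9 and mcm7 at 281 ± 3.77, followed by the rrm2 records at 188 ± 6.05 and 186 ± 20.9, which did not differ beyond their spread, and rrm1 at 135 ± 1.08 (SD, n = 2). The same 5 records led in the chimeras, where mcm7 at 549 ± 185 and the rrm2 record of chromosome 20 at 479 ± 27.1 did not differ beyond their spread (SD, n = 3). mcm10, orc5, pole, orc1 and cdc45 were the least abundant detected members in zebrafish embryos.

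Subunits of a complex were often, but not always, at like levels. RPA was close to equal in zebrafish transcripts, with its highest subunit 1.04 to 1.42 times its lowest over the zebrafish-genome profiles, against 2.16 and 2.31 times in the medaka embryos and up to 2.39 times in the host transcripts. The subunits of the alpha-primase complex were within 1.15 to 1.64 times on the zebrafish genome. ORC was less even, since orc2 stood 7.70 to 9.73 times above its lowest subunit in zebrafish transcripts, where the 5 medaka subunits with a record stayed within 1.96 to 2.31 times. The zebrafish orc2 record overlaps an uncharacterised record at 2.45 FPKM in the embryos. In all, 15 zebrafish member records overlap another gene record, and in none of them was the other record at the higher level. In medaka this was so for 5 records, and for lig1 the overlapping record was the higher of the pair. Whether the counting used strand is not given in the sources used here, so reads of overlapping genes could be split between them.

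Chimera 2 was the highest chimera for most replication genes on both genomes. It led for 25 of 43 tested records (58.1%) on the zebrafish genome, where it led for 37.1% of all tested genes above 0 in a chimera. On the medaka genome it led for 27 of 44 (61.4%), against 40.7% of all such genes. All 6 subunits of the MCM ring were highest in chimera 2 on both genomes. The donor and host values of a chimera come from the same library, so both figures share it. Without chimera 2 the donor count was 32 and the median difference 0.61, beside 33 and 0.61 with all libraries.

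In the donor, larger shares of origin, fork, chromatin-copying and E2F-related genes rose than of all tested genes. Of 19 tested records of origin control and firing partners 13 rose and 0 fell, with a median of 0.63. Of all tested zebrafish genes 10.5% rose and 32.5% fell, which is the share to set beside each list here. cdc7, the kinase that fires origins, rose from 10.1 and 8.98 to 23.9, 16.3 and 25.9 (2.31-fold, adjusted p = 0.016), and ticrr, which helps load Cdc45, rose 2.27-fold (adjusted p = 0.0049). gmnn, geminin, which blocks Cdt1, was not called (0.16, adjusted p = 0.37), and was picked after its value was seen. Of 22 fork partners 11 rose and 0 fell, with the largest log2 differences in mms22l (1.34, adjusted p = 0.014), which protects stalled forks, and top2a, the topoisomerase that untangles sister DNA (1.01, adjusted p = 0.00078). Of 16 genes of chromatin copying 13 rose and 0 fell, with esco2, the acetyltransferase of sister chromatid cohesion, 2.08-fold higher (adjusted p = 0.00073) and slbp, which binds histone mRNA, 1.86-fold higher (adjusted p = 0.0061). The list of E2F and Rb genes also holds lin9, lin37, lin52, lin54, mybl2b and foxm1. Of its 19 tested records 10 rose, led by e2f2 (2.66-fold, adjusted p = 0.00072) and e2f8 (2.29-fold, adjusted p = 0.0085). lin9, lin37, mybl2b and foxm1 were among the 10, while rb1, rbl1 and rbl2 were not called (adjusted p = 0.22, 0.2 and 0.3). e2f5 fell from 1.49 and 1.34 to 0.42, 0.31 and 0.56 (adjusted p = 0.0065). Without either zebrafish library, which leaves 1 control, fewer genes of each list were called as risen, and fewer of all tested genes were too. In the host 0 of 13, 0 of 20, 2 of 11 and 0 of 11 rose, the 2 being the histone chaperones asf1ba and asf1bb. Of all tested medaka genes 2.7% rose, and at that share few or no calls are expected in lists this short.

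Nucleotide metabolism outside the members did not move with them in the donor. Of 26 tested genes 3 rose and 12 fell, with a median of -0.34, where 10.5% of all tested genes rose and 32.5% fell with a median of -0.23, and under quantile normalization 5 rose and 10 fell. dck, the deoxycytidine salvage kinase, rose from 11.3 and 8.42 to 20.9, 26.2 and 17.6 (2.19-fold, adjusted p = 0.017), uck2b, a uridine-cytidine kinase, rose 1.85-fold (adjusted p = 0.002), and the third, cad, the enzyme of the first steps of pyrimidine synthesis, rose 1.40-fold (adjusted p = 0.041). paics, an enzyme of de novo purine synthesis, fell from 268 and 244 to 56.9, 58.3 and 44.5 (log2 difference -2.25, SE 0.15, adjusted p = 0.00026). impdh1a, of guanine nucleotide synthesis, stood at 3.08 and 4.05 in the zebrafish embryos, and each chimera listed it at 0. Other genes that fell, picked after their values were seen, were the purine enzymes gart (-1.99), adsl (-1.36), pfas (-1.13) and ppat (-1.07), the folate enzyme mthfd2 (-1.67) and rrm2b, the small reductase subunit known in mammals for its induction by p53 (-1.38). rrm2b went from 40.2 and 37.7 to 11.1, 13.6 and 19.4. Without zebrafish replicate 1 or 2, which leaves 1 control, fewer of these genes were called in either direction, and fewer of all tested genes were too. In the host 1 of 22 rose (tk1, thymidine kinase, 1.30-fold, adjusted p = 0.013) and 1 fell (cad, -0.28, adjusted p = 0.047), and paics was not called (-0.10, adjusted p = 0.33). The shares over all tested medaka genes were 2.7% risen and 3.18% fallen. In the joint fit the donor change was larger for 2 of 21 and smaller for 11.

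**Figure D5:**
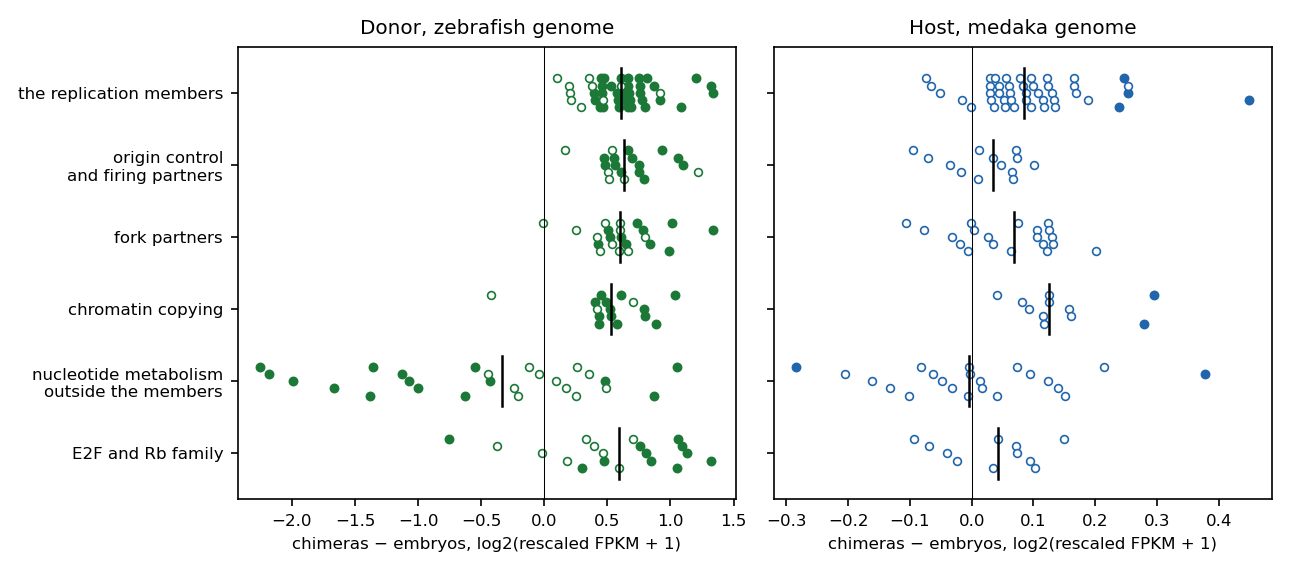
Difference between chimeras and embryos (log2 rescaled FPKM + 1) of each tested replication gene and of 5 lists of related genes, in the donor (left) and the host (right, on a narrower axis). Each point is a gene record, filled where it passed the test, and the bar is the median of the list. In the donor the medians are 0.61, 0.63, 0.60, 0.53, -0.34 and 0.60 from top to bottom, with paics at -2.25.

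Marker genes of tissues also differed between chimeras and embryos. The summed levels given here run over every record of a list with a valid value, tested or not. Records without a valid value were in neither the tests nor the sums. Among the records in the sums, untested ones above the minimum level were kept out by the cross-mapping filter. Their values in the chimeras can hold signal of the other species. The shares over all tested zebrafish genes were 10.5% risen and 32.5% fallen. In the donor 12 of 14 tested genes of retinal progenitors and the eye field rose and 1 fell. The sum over 15 records of that list went from 273 and 299 in the zebrafish embryos to 1121 to 1267 in the chimeras. The summed level of the 46 replication records went from 2844 and 3040 to between 4972 and 5457. Only 5 of 16 muscle records and 4 of 10 epidermal records were tested, and 15 and 5 of them had a valid value. All 5 tested skeletal muscle genes fell, 4 of them listed at 0 in each chimera. Their own sum was 3362 and 5094 in the embryos and at most 0.60 in a chimera. Over all 15 muscle records with a valid value the sum was 18809 and 29981 in the embryos and 289 to 359 in the chimeras. The signal left in the chimeras thus lay mostly in records kept out by the cross-mapping filter. Donor RNA and medaka reads cannot be told apart in it. All 5 tested erythroid genes fell and were listed at 0 in each chimera, and the sum over 6 records was 5759 and 6680 in the embryos and 0 in each chimera. All 4 tested epidermal genes fell, 3 of them listed at 0, with sums over 5 records of 3907 and 4519 against 2.11 to 4.58. Of 6 tested genes of postmitotic neurons 5 fell, with sums of 133 and 153 against 67.6 to 81.9 over these 6. Over all 10 records, those kept out for cross-mapping included, the sums were 381 and 400.4 against 338 to 354. The part of tissue makeup in the donor difference was not tested.

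In the host the replication records went from 2542 and 2557 to between 2771 and 2883. Over all tested medaka genes 2.7% rose and 3.18% fell. The sum of the retinal list, over 9 records, went from 205 and 216 in the medaka embryos to 216 to 226 in the chimeras, with 1 of 8 tested genes risen. The muscle list, over 11 records, went from 134 and 137 to 146 to 155, with 2 of 4 risen, and the erythroid list, over 2 records, from 52.8 and 56.8 to 59.5 to 61.4, with 1 of 2 risen. The neuron list, over 6 records, went from 47.6 and 49.2 to 67.3 to 76.4, and its single tested gene rose. The epidermal list, over 6 records, stood at 653 and 706 in the embryos and at 580.2 to 584 in the chimeras, and neither of its 2 tested genes was called. The part of tissue makeup in the host difference was not tested either.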

How the data were processed

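The values used are FPKM (fragments per kilobase of transcript, scaled to mapped fragments). The authors made the deposited FPKM with the tools HISAT2 and Cufflinks (2.2.1), per the submitters' processing notes, and gave them with confidence limits per gene, library and genome. The zebrafish build is danRer10 per those notes. Neither the HISAT2 version nor the medaka build is given in the sources used here. Starts are counted from 1, and 45 of the 46 zebrafish member IDs carry the same symbol in the table of gene names.

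Within a genome a median-ratio factor per library rescaled the FPKM, which were tested as log2(FPKM + 1), so differences of low genes are understated. Tested records had a mean of at least 1 FPKM in either group, under 1 FPKM in the other species' libraries and a valid Cufflinks status. limma 3.58.1 (R 4.3.3, empirical Bayes with trend and robust options) was fitted over all such records, with p adjusted by Benjamini and Hochberg and a threshold of 0.05. On simulated data with known changes it missed most 2-fold rises in the donor. A share above 0.05 of the simulated calls was false in the donor and in the host. In the donor the false calls were all in genes expected to hold under 3 fragments per chimera, and nearly all were called lower. The simulation changed far fewer genes than were called in the data, so its rates need not hold here. A gene that was not called is still not shown to be unchanged. A joint fit gave donor change minus host change. Fold is the ratio of group means. Fragments are those implied by the confidence limits, which cover counting error only and read low for genes with several isoforms. Python 3.11.15 with pandas 2.3.3 and matplotlib 3.10.9 read tables and drew figures.

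The members and lists were chosen with earlier results of these data known. Values in every library are given, per role, for the 3 tested members with the largest donor difference, for the 2 with the largest host difference and for untested members. For the joint fit the 10 largest called differences are given, and per other list up to 2 called genes in each direction. Alternatives covered the pseudocount, both filters, scaling, weights, all 3 groups in a fit, each library left out, summed records and, added after the data were seen, a minimum of 3 fragments per chimera.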

Additional observations from a re-analysis of the deposited data

Results flagged for a closer look

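The change in donor transcripts differed from the change in host transcripts, by the test of that difference, for 24 of 38 replication genes. The 10 largest are given on the log2 scale as donor change minus host change. pola1 led with 1.02 (SE 0.15, adjusted p = 4e-04 by limma). mcm7 followed with 0.85 (SE 0.29, adjusted p = 0.041), and it lost its call at a pseudocount of 0.1 or a minimum mean of 5 FPKM and without either zebrafish library, either medaka library or chimera 3 (adjusted p = 0.051 to 0.12 in these). The loader subunits rfc3 and rfc5 gave 0.76 and 0.73, the primase subunits prim2 and prim1 gave 0.74 and 0.71, and the GINS subunits gins4 and gins3 both gave 0.73. pola2, the second subunit of polymerase alpha, gave 0.71 and pole gave 0.70. The adjusted p of these 8 genes lay between 0.00034 and 0.0051, and each kept its call in every alternative that tested it. In all 10 the host change was between 0.03 and 0.17. The joint fit uses the chimera libraries for both changes. The libraries of 2 or 3 per group are too few for a check of single outlying libraries.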

How the results depend on the processing

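The donor count of 33 risen members lay between 30 and 38 under all alternatives that kept every library. Leaving out 1 library gave 14 to 34 risen members and a median of 0.53 to 0.67. The donor median of 0.61 became 0.55 with a pseudocount of 5, 0.56 with a minimum mean of 5 FPKM, 0.68 with FPKM as deposited and 0.75 with quantile normalization. The host count of 4 became 2 without a minimum level and was 0 to 5 with 1 library left out, and the host median of 0.085 became 0.13 with FPKM as deposited. Donor change minus host change was larger for 20 to 34 of the members tested with every library kept. The count of 20 came with a minimum mean of 5 FPKM (713 of 4994 symbols) and 34 with quantile normalization (2662 of 7789 symbols). Without chimera 1, 2 and 3 the count was 21, 27 and 20, beside 1026, 1159 and 966 of all symbols. It was lower still without a medaka library or zebrafish replicate 2, which leaves 1 control. No member fell in either comparison, or was smaller in the joint fit, under any alternative.

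The added minimum of 3 fragments per chimera gave 34, 4 and 26 calls in the 3 comparisons. Signs varied between alternatives for rfc1 in the donor, for 5 host members and for dhfr and rfc1 in the joint fit, none of which was called. The labels carry no replicate numbers that groups share, so no paired fit was possible for the donor and host comparisons. With the chimera library as a replicate block the joint fit again called 24 members. The donor values of rfc1 rested on as few as 7.98 fragments.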
